A study of Homo sapiens with 4 samples.

Results

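Ribosome biogenesis and RNA polymerase I were followed through 41 genes, chosen by name: 7 of the polymerase I machinery, 7 of the small nucleolar ribonucleoproteins, 7 abundant nucleolar proteins, 12 small subunit factors and 8 large subunit factors. These genes and the other lists below were chosen with earlier results of these data known. Shares of all genes set beside them are therefore descriptive only. A gene's level was the sum of its annotated transcripts, as CPM, its counts scaled by the library's total. Of the 41 genes, all 41 reached 1 CPM in at least 1 library, among 15989 genes of the series that did so. The genes were measured in AC16, an immortal human line derived from adult heart ventricle cells fused with SV40-transformed fibroblasts, whose labelled cell type is cardiomyocyte. Poly(A) RNA was sequenced at 0, 10, 30 and 360 min in 10 nM doxorubicin, an anthracycline that intercalates into DNA and poisons topoisomerase II, with 1 library at each time and no replicates. The 0 min library is the untreated control. For drug exposure, medium with serum was taken off, the cells were rinsed with PBS, and the drug was given in new serum-free DMEM. Whether the 0 min cells also changed medium is not stated, so drug, medium change and loss of serum cannot be told apart here. No statement below has a test across samples: differences are ratios of CPM with 95% counting intervals, which cover counting error only.

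Ribosomes are assembled in the nucleolus, where RNA polymerase I copies the ribosomal DNA into a long precursor. Small nucleolar ribonucleoproteins modify that precursor, and the processome and later factors fold it, cut it and load it with ribosomal proteins. Genes for these factors are classic targets of MYC, which binds the E-box CACGTG, and anthracyclines are known to disturb polymerase I transcription and the nucleolus. The precursor itself has no poly(A) tail, so these libraries measured the mRNAs of the machinery and not its output.

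The 10 min library stood apart from the other 3. Among 12140 genes with at least 5 CPM in 1 library, 39.1% had their lowest value in it and 34.1% their highest. The summed level of 20 proliferation genes was 3714 CPM at 0 min, 1516 CPM at 10 min, 3748 CPM at 30 min and 3748 CPM at 360 min, with 17 of the 20 at least 2-fold lower at 10 min. Summed fibroblast markers were highest in the same library (10522, 13776, 8981 and 8897 CPM in time order), from 5 of 10 markers that reached 1 CPM, with DCN and LUM at 0. Only 6 of 12 cardiomyocyte markers reached 1 CPM, MYBPC3 was at 0 throughout, and their sum lay between 80.5 and 93.0 CPM. Of the other cell types looked for, summed endothelial markers were highest at 10 min (41.1 CPM, against 16.9 to 19.0 CPM), with 2 of 6 at 1 CPM or more and KDR at 0. So were immune markers (57.6 CPM, against 29.8 to 33.0 CPM), with 2 of 6 and CD14 at 0. Epithelial markers, 3 of 5, summed to 471 to 522 CPM. The part of these differences in the results below was not tested. In bulk RNA, fewer cells of a type and less RNA per cell cannot be told apart. Every comparison with the 10 min library rests on that library, and the comparisons of 30 and 360 min with 0 min are the results without it.

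Promoter sequence is shown first, because an E-box close to the transcript start was common among these genes. RefSeq windows of 250 bases before to 50 bases after the start (GRCh38.p14) matched 35 of the 41 genes. CACGTG, which reads the same on both strands, was present in 16 of the 35 (45.7%), in 30% of 130 other ribosome biogenesis genes, in 12.6% of 10962 measured genes and in 8.77% of all 27305 windows. The 5 windows shown belong to the members with the E-box that were also at least 2-fold lower at 10 min. For POLR1G (chr19:45406394-45406643, plus strand), LYAR (chr4:4290022-4290271, minus strand) and UTP20 (chr12:101279855-101280104, plus strand) the 250 bases before the start are given. For RRP9 (chr3:51941892-51941921, minus strand) and PNO1 (chr2:68157885-68157914, plus strand), 30 bases around the E-box are given. Each runs 5′ to 3′ on the gene's strand with the E-box in capitals.
POLR1G: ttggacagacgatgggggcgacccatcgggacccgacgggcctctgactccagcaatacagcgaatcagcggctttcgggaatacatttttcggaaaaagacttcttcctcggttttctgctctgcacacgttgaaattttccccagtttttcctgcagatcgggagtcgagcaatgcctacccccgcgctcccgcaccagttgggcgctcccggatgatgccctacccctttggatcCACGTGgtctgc
LYAR: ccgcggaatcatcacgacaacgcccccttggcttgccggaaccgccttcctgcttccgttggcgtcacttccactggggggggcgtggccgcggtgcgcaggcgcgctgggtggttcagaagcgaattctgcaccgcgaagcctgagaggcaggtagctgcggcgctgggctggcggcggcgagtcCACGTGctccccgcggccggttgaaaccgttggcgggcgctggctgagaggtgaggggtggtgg
UTP20: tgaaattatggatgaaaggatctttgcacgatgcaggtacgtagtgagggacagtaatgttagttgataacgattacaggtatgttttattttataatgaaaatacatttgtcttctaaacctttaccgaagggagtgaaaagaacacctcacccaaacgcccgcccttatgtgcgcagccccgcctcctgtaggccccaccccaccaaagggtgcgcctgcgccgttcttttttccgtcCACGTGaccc
RRP9: gggttcagctgcCACGTGagttctgcggcc
PNO1: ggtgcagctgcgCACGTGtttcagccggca

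The E-box began 12 bases before the start in POLR1G, 10 before it in UTP20 and 64 before it in LYAR. In RRP9 it began 5 bases before the start and crossed it, and in PNO1 it began at base 10 of the transcript. Boxes lying wholly in the first 50 transcribed bases were found in 10 of 35 members (28.6%), in 13.1% of the other ribosome biogenesis genes and in 1.59% of measured genes. These 10 were FBL, GNL3, BYSL, MYBBP1A, GAR1, NOP2, PES1, NOP14, WDR43 and PNO1. Boxes wholly before the start were found in 5 members (14.3%), in 18.5% of the other ribosome biogenesis genes and in 11.1% of measured genes. In the last 50 bases before the start, a box began in 14.3% of members. The other ribosome biogenesis genes were at 9.23% there and measured genes at 3.90%. From 250 to 101 bases before the start, members had 0 boxes, and measured genes 1.73% to 2.33% in each 50-base bin.

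**Figure D1:**
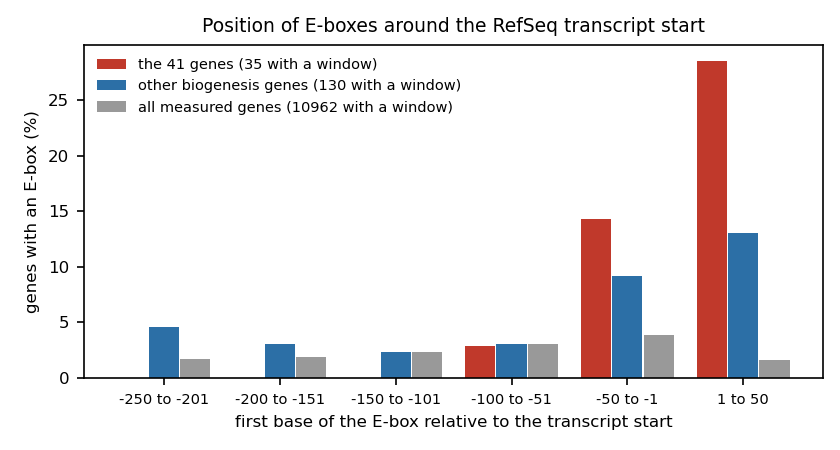
Share of genes (percent) with an E-box beginning in each 50-base bin, against distance from the RefSeq transcript start in bases, for the 35 members with a window, 130 other ribosome biogenesis genes and 10962 measured genes. The members' highest share, 28.6%, lies just after the start, where measured genes are at 1.59%.

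Members with and without the box overlapped in their 10 min ratios. Of the 16 with it, 5 were at least 2-fold lower at 10 min, with a median ratio to 0 min of 0.571, and of the 19 without it 8 were, with a median of 0.528. MYC itself was thinly counted on its annotated transcripts, at 2.34, 5.25, 4.41 and 1.81 CPM in time order. With the unannotated models of its locus it was at 28.2, 66.6, 84.2 and 37.2 CPM, 2.36-fold higher at 10 than at 0 min (interval 2.10 to 2.66). At 10 and 30 min, where most members were below their start, the MYC values were above those at 0 min. In the last library the whole MYC locus was above its 0 min level (37.2 against 28.2 CPM). Its annotated transcripts were below theirs (1.81 against 2.34 CPM). Whether MYC bears on the levels of the members was not tested. Searched on both strands of the same windows, the ETS core CCGGAAG matched 37.1% of members, 42.3% of the other ribosome biogenesis genes and 21.4% of measured genes. A fixed string for NRF1 matched 8.57%, 7.69% and 2.59%. The YY1 core AAGATGGC matched 5.71%, 11.5% and 6.24%, and the GC box GGGCGG 71.4%, 63.1% and 75.5%. None of these strings contains another, and a match is a description of letters only.

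At 10 min against 0 min, every member had a lower level. All 41 ratios were below 1, with all 41 intervals below 1, where 52.5% of the 11892 genes compared had a ratio below 1. The interval lay below 1 in 5058 of the 15989 measured genes. These include genes with few counts and so wide intervals, while every member had at least 14.4 CPM at 0 min. Counts of intervals in the 2 groups are therefore not at like depth, here and at the later times. The members' median log2 ratio was -0.86, a ratio of 0.550, and that of all 15989 measured genes, low ones included, was 0.02. By the size rule, at least 2-fold with at least 5 CPM in 1 library and an interval that excludes 1, 16 of the 41 were lower (39%) and 0 higher, against 6.85% and 7.69% of all genes. The 10 min level was the lowest of the 4 in 40 of 41 members, WDR75 being the exception. In 38 of 41 the 30 min level came next, an order that 16.4% of all genes had. The highest level was at 360 min in 31 members, against 25.2% of all genes, at 0 min in 9 and at 30 min in 1.

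**Figure D2:**
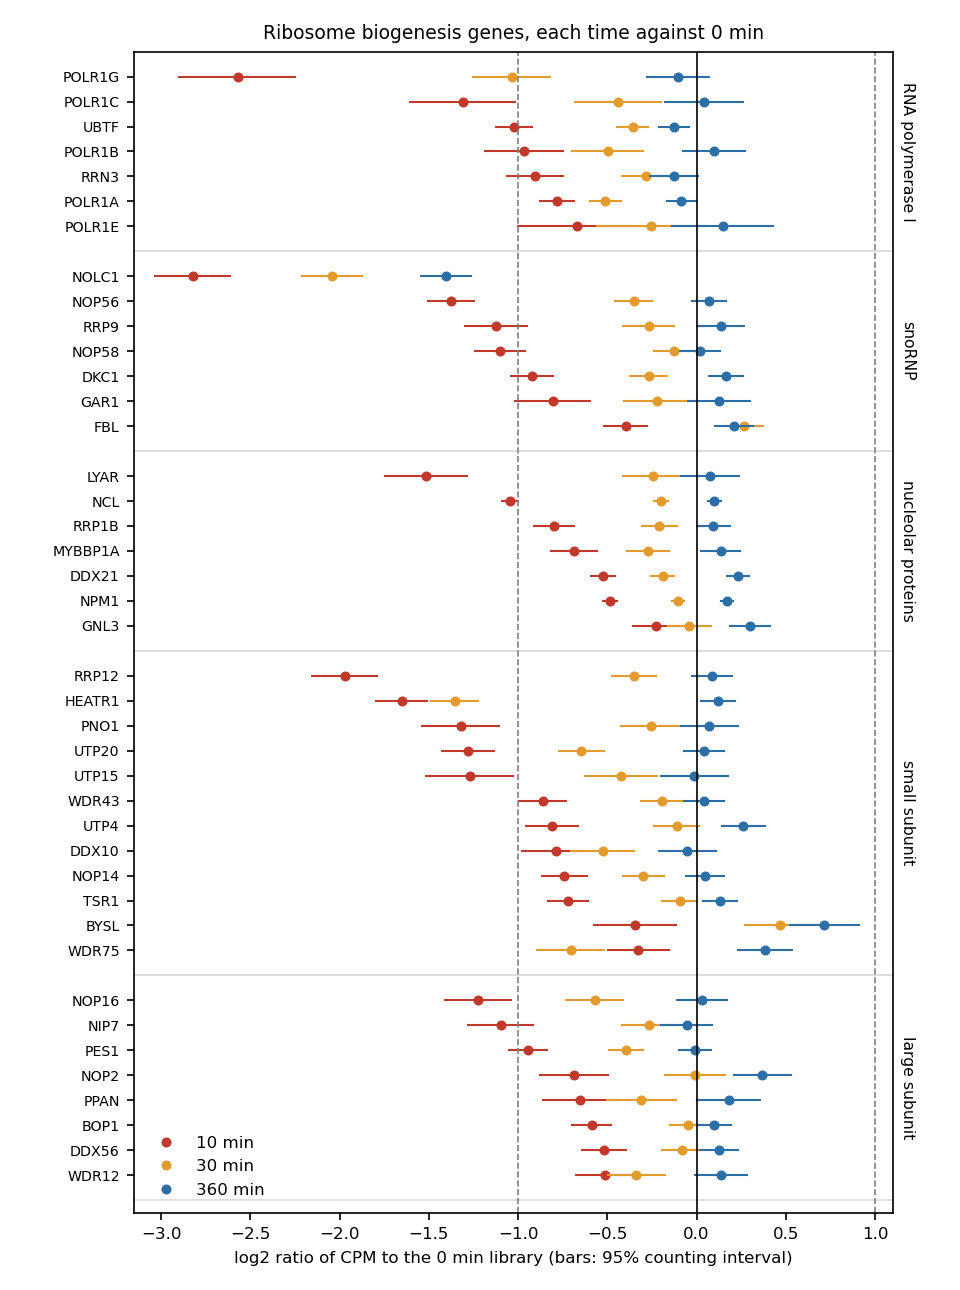
Log2 ratio of CPM to the 0 min library (horizontal) for each of the 41 genes at 10, 30 and 360 min, grouped by role, with bars for the 95% counting interval and dashed lines at 2-fold. All 41 points at 10 min lie below a log2 ratio of 0, while 32 of the 41 at 360 min lie above it.

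In the polymerase I machinery, 3 of 7 genes were lower at 10 min (median log2 ratio -0.97). POLR1G, a subunit of the polymerase also called CD3EAP (ENSG00000117877, GRCh38, chromosome 19, 45406209 to 45410766), was at 39.5 CPM at 0 min, 6.66 CPM at 10 min, 19.3 CPM at 30 min and 36.7 CPM at 360 min. Its 10 min level was 5.93-fold lower than at 0 min (interval 4.75 to 7.48), and its 30 min level 2.05-fold lower (1.77 to 2.38). At 360 min it was back to a ratio of 0.931. Its exons share 43.5% of their bases with ERCC1 on the other strand, so unless strand was used in counting, reads there could belong to either gene. ERCC1 was at 75.9, 67.4, 79.5 and 73.9 CPM, a ratio of 0.888 at 10 min. A different annotated POLR1G transcript also led at 10 min than at 0 min.

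POLR1C, a subunit shared by polymerases I and III, went from 24.3 CPM at 0 min to 9.78 CPM at 10 min, 17.9 CPM at 30 min and 25 CPM at 360 min, 2.48-fold lower at 10 min (2.03 to 3.05). UBTF, the factor that bends and opens the ribosomal gene promoter, was at 178, 87.3, 138 and 163 CPM, 2.03-fold lower at 10 min (1.90 to 2.18) and just inside the rule (1.96-fold on the whole locus, outside it). Both genes had their lowest level at 10 min and were within 1.09-fold of the start by 360 min. POLR1A, the largest subunit, was at 179.6, 105, 126 and 169 CPM and did not reach 2-fold, with a ratio of 0.582 at 10 min. RRN3, which brings the polymerase to the promoter, was at 68.9, 36.7, 56.7 and 63.1 CPM (ratio 0.534), and it has 3 near copies by symbol that could share its reads. POLR1B, the second largest subunit, had a ratio of 0.512 and lay just outside the rule, and POLR1E one of 0.628. For POLR1E, unannotated models held 84.4% of the locus at 0 min, and the whole locus had a ratio of 0.524.

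The small nucleolar ribonucleoproteins had the lowest median, -1.10 on the log2 scale, with 4 of 7 lower. NOP56 and NOP58, the paired core proteins of the box C/D particles, were both among them. NOP56 (ENSG00000101361, chromosome 20, 2652145 to 2658393) was at 129 CPM at 0 min, 49.6 CPM at 10 min, 101 CPM at 30 min and 135 CPM at 360 min, 2.59-fold lower at 10 min (2.37 to 2.84). NOP58 was at 96.1, 44.9, 88.2 and 97.4 CPM, 2.14-fold lower (1.95 to 2.36). RRP9, which binds the U3 RNA, was at 62.3, 28.6, 51.8 and 68.4 CPM, 2.18-fold lower (1.93 to 2.46). FBL, the methyltransferase of the same particles, was nearer to its start at 10 min, at 93.5, 71.1, 113 and 108 CPM, a ratio of 0.760. FBL was also 1 of only 2 members above its 0 min level at 30 min, at a ratio of 1.20 (1.12 to 1.30).

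The pseudouridylation particle was represented by its enzyme DKC1 and by GAR1. DKC1 was at 125, 65.8, 104 and 139.8 CPM, 1.89-fold below 0 min at 10 min (1.75 to 2.05), and on the whole locus it was 2.09-fold lower, past the rule. GAR1 had a ratio of 0.572. NOLC1, a chaperone of small nucleolar ribonucleoproteins (ENSG00000166197, chromosome 10, 102152176 to 102163871), had the lowest ratio of all members. Its annotated transcripts were at 108 CPM at 0 min, 15.3 CPM at 10 min, 26.3 CPM at 30 min and 41 CPM at 360 min, and it was 7.08-fold lower at 10 min (6.13 to 8.21). It was also 4.12-fold lower at 30 min (3.67 to 4.63) and 2.64-fold lower at 360 min (2.40 to 2.92). These folds do not hold for the locus as a whole, as described with the assembled models.

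Of the abundant nucleolar proteins, 2 of 7 were lower at 10 min (median log2 ratio -0.69). NCL, nucleolin, an RNA-binding protein of the nucleolus (ENSG00000115053, chromosome 2, 231453531 to 231483641), was at 869 CPM at 0 min, 421 CPM at 10 min, 757 CPM at 30 min and 931 CPM at 360 min. That was 2.06-fold lower at 10 min (2.001 to 2.13), on one of the deepest counts in the set. LYAR, a nucleolar zinc finger protein (ENSG00000145220, chromosome 4, 4267701 to 4290169), was at 43.3, 15.2, 36.7 and 45.6 CPM, 2.86-fold lower (2.44 to 3.36). NPM1, nucleophosmin, a histone and ribosome chaperone, was at 969, 693, 902 and 1091 CPM, a ratio of 0.715. NPM1 has 45 near copies by symbol, most of them pseudogenes, so its level is uncertain. Near copies by symbol that could share reads also exist for NOP56 and NIP7 (3 each), NCL, PES1 and DDX10 (2 each) and LYAR (1). GNL3, nucleostemin, had the ratio nearest to 1 of all members, 0.853, at 82.0, 70.0, 79.7 and 101 CPM. MYBBP1A, RRP1B and the helicase DDX21 had ratios of 0.622, 0.575 and 0.696. Divided by transcript length, NPM1, NCL and FBL had the highest levels among members at 0 min (1677, 579 and 224 TPM) and WDR12 the lowest (17.5).

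Among the 12 small subunit factors, 5 were lower at 10 min (median log2 ratio -0.84). RRP12, an export and maturation factor (ENSG00000052749, chromosome 10, 97356358 to 97426076), was at 89.1 CPM at 0 min, 22.7 CPM at 10 min, 69.9 CPM at 30 min and 94.6 CPM at 360 min, 3.92-fold lower at 10 min (3.46 to 4.44). HEATR1, a processome component also called UTP10 (ENSG00000119285, chromosome 1, 236549005 to 236604504), was at 121, 38.4, 47.2 and 131 CPM. It was 3.14-fold lower at 10 min (2.85 to 3.47) and 2.56-fold lower at 30 min (2.34 to 2.81). With the assembled models of its locus the HEATR1 folds were 1.62 and 1.19, under the rule at both times. Of its exon bases 23.2% are shared with LGALS8 on the other strand, which was at 10.1, 11.9, 13.0 and 15.6 CPM. RRP12 and HEATR1 both returned to or above their 0 min level by 360 min.

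PNO1, which binds the maturing end of the small subunit RNA, was at 44.5, 17.8, 37.3 and 46.8 CPM, 2.50-fold lower at 10 min (2.15 to 2.90). The processome proteins UTP20 and UTP15 were close to each other in size. UTP20 (ENSG00000120800, chromosome 12, 101280109 to 101386616) was at 92.9, 38.2, 59.4 and 95.6 CPM, 2.43-fold lower (2.19 to 2.69), and UTP15 at 33.7, 14.0, 25.1 and 33.4 CPM, 2.41-fold lower (2.04 to 2.86). The other 7 small subunit factors had ratios from 0.550 (WDR43) to 0.798 (WDR75). BYSL, needed for late small subunit maturation, was at 25.9, 20.4, 35.8 and 42.5 CPM. Its ratio was 0.788 at 10 min, 1.38 at 30 min (1.21 to 1.59) and 1.64 at 360 min (1.44 to 1.88), the highest of the members at both later times, though under 2-fold.

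Large subunit factors had the median nearest to 0, -0.67, with 2 of 8 lower. NOP16 was at 57.7 CPM at 0 min, 24.7 CPM at 10 min, 38.9 CPM at 30 min and 59.0 CPM at 360 min, 2.33-fold lower at 10 min (2.05 to 2.65). NIP7 was at 56.6, 26.5, 47.1 and 54.4 CPM, 2.14-fold lower (1.89 to 2.43). The exons of both overlap other annotated genes (19.95% and 20.2% of their bases), on the other strand ARL10 for NOP16 (12%) and COG8 for NIP7 (20.2%). PES1, BOP1 and WDR12, which work as 1 complex in large subunit assembly, did not reach 2-fold and differed in size among themselves. PES1 was at 148, 76.7, 112 and 147 CPM (ratio 0.519), BOP1 at 122, 81.2, 118 and 130.5 CPM (0.666), and WDR12 at 52.3, 36.7, 41.4 and 57.6 CPM (0.701). The methyltransferase NOP2, PPAN and the helicase DDX56 had ratios of 0.622, 0.637 and 0.698. Of the exon bases of NOP2 54.4%, and of PPAN 59.8%, lie in other annotated genes.

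At 30 min against 0 min, which does not use the 10 min library, most members were still below their start but few by much. Ratios were below 1 in 39 of 41 and their intervals below 1 in 32, against 51.2% of all genes with a ratio below 1. Over the 15989 measured genes, low ones included, 3534 had an interval below 1. The median log2 ratio was -0.27 (a ratio of 0.830). By the size rule, 3 of 41 were lower, POLR1G, NOLC1 and HEATR1, where 3.25% of all genes were lower and 3.55% higher. UTP20 and DDX10 were among the lower of the rest, at ratios of 0.639 and 0.695. WDR75 was at 44.5, 35.5, 27.3 and 58.1 CPM, its lowest at 30 min, where unannotated models at its locus reached 19.97 CPM.

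At 360 min against 0 min, 32 of 41 members were above their start, with a median log2 ratio of 0.10 (a ratio of 1.07), where 48.5% of all genes had a ratio below 1. The interval lay above 1 in 18 members and below 1 in 3, against 3130 and 3098 of all 15989 measured genes, low ones included. Only NOLC1 passed the size rule, as lower, on its annotated transcripts, against 3.34% of all genes lower and 3.26% higher. Against the 10 min library the 360 min levels had ratios above 1 in all 41, with a median of 1.91, where 47.3% of all genes had a ratio below 1. By the rule 20 of 41 were higher and 0 lower, against 7.99% and 9.13% of all genes. Among them RRP12 was 4.16-fold higher (3.68 to 4.72), POLR1G 5.52-fold (4.42 to 6.97) and LYAR 3.01-fold (2.57 to 3.53). With the assembled models of its locus, RRP12 was 2.77-fold higher (2.49 to 3.08). These comparisons share their 0 min or their 10 min library, so a high or low value of a gene there enters more than 1 of them.

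**Figure D3:**
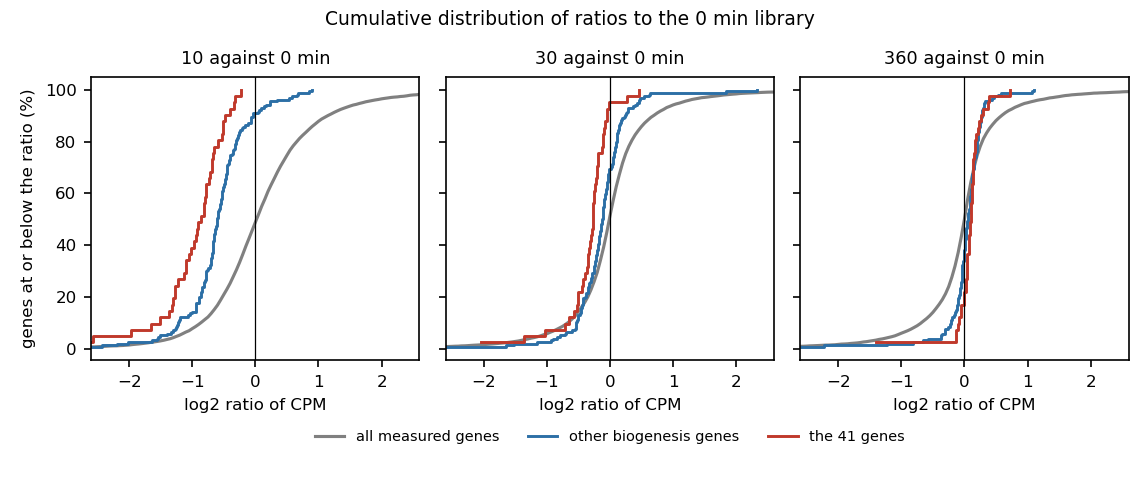
Cumulative share of genes (percent) at or below each log2 ratio of CPM, for the 41 members, the other ribosome biogenesis genes and all measured genes, with a panel each for 10, 30 and 360 min against 0 min. At 10 min against 0 min the members' median is -0.86 and that of all measured genes 0.02, and at 360 min against 0 min the members' median is 0.10.

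The deposited tables also hold transcript models made by assembly, which are not annotated and take counts from annotated transcripts of the same locus. A whole locus could be named for 36 of 41 members, all but FBL, NOP56, NOP58, GNL3 and PPAN. In 27 of the 36 no assembled model had a count in any library, and in 6 the models held at least 10% of the locus in some library (POLR1E, DKC1, NOLC1, WDR75, HEATR1 and RRP12). At NOLC1 the models were at 54.98 CPM at 0 min, 101 CPM at 10 min, 129 CPM at 30 min and 139.7 CPM at 360 min. The whole NOLC1 locus was at 163, 116, 156 and 181 CPM, with a ratio of 0.710 at 10 min (0.666 to 0.757), 0.954 at 30 min and 1.11 at 360 min. None of these passed the rule, and the last lay on the other side of 1 from the annotated ratio.

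At HEATR1 the models held 1.58% of the locus at 0 min, 49% at 10 min, 54.3% at 30 min and 2.59% at 360 min. The whole HEATR1 locus was at 123, 75.8, 103 and 135 CPM, a ratio of 0.617 at 10 min (0.571 to 0.667) and 0.841 at 30 min, under 2-fold both times. The RRP12 locus was at 90.3, 34.2, 69.9 and 94.6 CPM, still 2.64-fold lower at 10 min. UBTF passed narrowly on annotated transcripts and not on the whole locus (ratio 0.510).

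**Figure D4:**
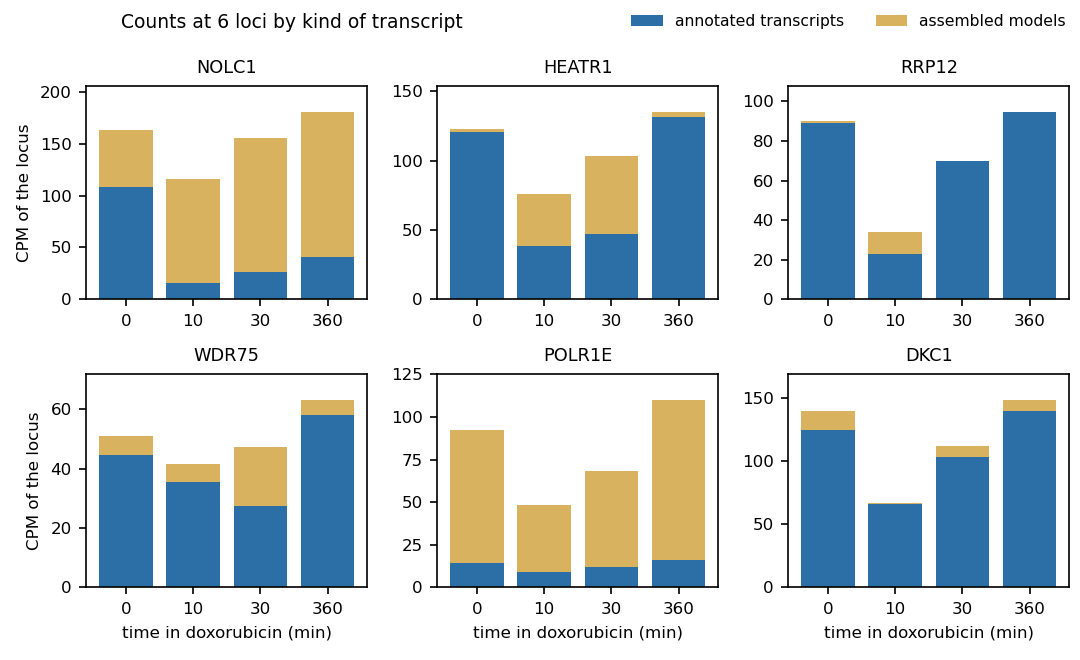
Stacked bars of the CPM of annotated transcripts and of assembled models at the loci of members whose models hold at least 10% of the locus in 1 library, at 0, 10, 30 and 360 min. At HEATR1 the models rise from 1.93 CPM at 0 min to 37.1 and 56.0 CPM at 10 and 30 min and are at 3.50 CPM at 360 min.

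Over whole loci, the 10 min library was the lowest for 36 of 36 members. For the 27 without assembled counts the whole-locus value repeats the annotated one, or nearly so, and is not a second measure. By the rule 12 of 36 were lower at 10 min, against 4.62% of all named loci lower and 5.92% higher. Of these, 11 were also lower on annotated transcripts, and DKC1 was not. At 30 min only POLR1G was lower and 0 were higher (1.36% and 1.60% of all named loci). At 360 min against 0 min 0 were lower or higher (0.993% and 0.954%). Against the 10 min library 17 of 36 were higher and 0 lower (5.96% and 7.59%). NOLC1, HEATR1 and UBTF were thus under 2-fold on whole loci, while POLR1G, LYAR, PNO1, UTP20, UTP15 and POLR1C were past the rule on both. Among the latter only PNO1 had assembled counts, so for the rest both values are the same number.

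**Figure D5:**
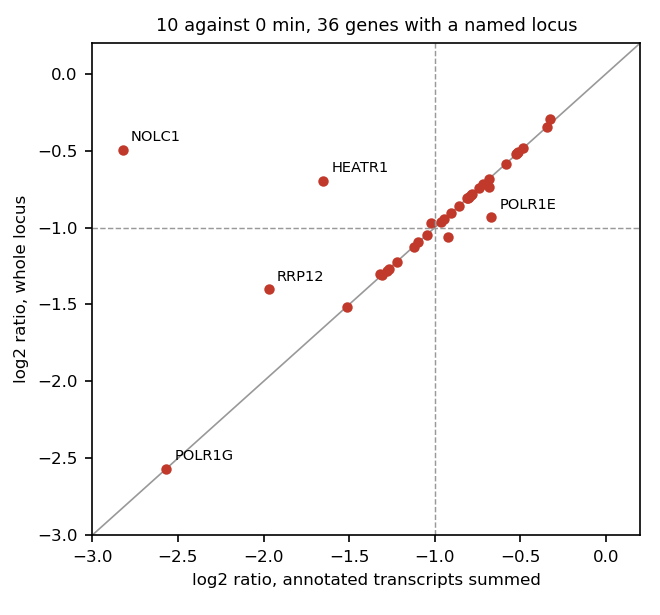
Log2 ratio of CPM at 10 min to 0 min on the whole locus (vertical) against the same on annotated transcripts (horizontal) for the 36 members with a named locus. Most points lie on the diagonal, as they must where a locus has no assembled counts (27 of the 36). NOLC1 (ratios of 0.141 on annotated transcripts and 0.710 on the locus) and HEATR1 (0.318 and 0.617) lie farthest above it.

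A wider list held 154 other genes of ribosome production. At 10 min against 0 min, 22 of 153 compared were lower (14.4%) and 0 higher, beside 6.85% and 7.69% of all genes, with a median log2 ratio of -0.60. The 10 min level was the lowest in 126 of 154 (81.8%), and 10 then 30 min in 83 (53.9%). By sublist, 11 of 49 large subunit factors, 7 of 44 small subunit factors, 2 of 20 polymerase III genes compared, 1 of 13 small nucleolar ribonucleoprotein genes and 1 of 14 exosome genes were lower. Of the 13 other polymerase I and shared subunits and selectivity factors, 0 were (median log2 ratio -0.41). The median log2 ratio was -0.68 for the large subunit factors, -0.67 for the small nucleolar ribonucleoprotein genes and -0.61 for the small subunit factors. The order of the roles among the members was thus not kept in this list. At 30 min against 0 min, 4 of 154 were lower and 2 higher, smaller shares than the 3.25% and 3.55% of all genes. Ratios were still below 1 in 107 of 154, with 70 intervals below 1 and 22 above (median log2 ratio -0.12). Of all 15989 measured genes, low ones included, 3534 had an interval below 1 and 3471 above. At 360 min against 0 min, 3 of 153 were lower and 2 higher, again smaller shares than in all genes (3.34% and 3.26%). There 95 of 154 ratios were above 1, with 42 intervals above 1 and 18 below (median log2 ratio 0.05). At 360 against 10 min, 32 of 152 were higher and 1 lower, beside 7.99% and 9.13% of all genes.

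The lowest 8 of these at 10 min were named by size, and several were set by transcript models. RRP15, a large subunit factor, was at 33.4 CPM at 0 min, 11.3 CPM at 10 min, 29.9 CPM at 30 min and 34.5 CPM at 360 min, and it was lower on the whole locus too (ratio 0.426). RRS1, which helps place the 5S particle in the large subunit, was at 62.8, 21.5, 43.3 and 69.8 CPM and has no named locus here. NOC2L was at 191, 35.4, 61.1 and 81.6 CPM, but its whole locus was at 196, 122, 209 and 226 CPM. In the same way the whole loci of PWP2, BMS1 and DDX27, which were 4.04, 3.09 and 2.84-fold lower on annotated transcripts, had ratios of 0.760, 0.598 and 0.681, under 2-fold. EXOSC6, a subunit of the RNA exosome, was at 51.1, 0.648, 0.814 and 44.2 CPM, and NOP9 at 17.8, 3.90, 6.20 and 1.41 CPM. Neither has a named locus, and 36.9% of NOP9's exon bases lie in other genes. Of the 18 lower genes with a named locus, 13 were lower on it as well, among 139 named loci of the list with 13 lower and 0 higher.

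MDM2, the ubiquitin ligase that is itself a p53 target and binds ribosomal proteins freed when ribosome assembly stalls, was at 68.1 CPM at 0 min, 55.7 CPM at 10 min, 100.4 CPM at 30 min and 72.6 CPM at 360 min. It was 1.22-fold below its start at 10 min (1.11 to 1.35) and at a ratio of 1.47 at 30 min, and so did not pass the rule.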

How the data were processed

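AC16 poly(A) RNA was sequenced at 4 times, 1 library each. HISAT2, DESeq2 and GRCh38 are named, per the submitters' processing notes. Their versions, how reads were counted, which annotation guided this and whether strand counted were not given in the sources used here. Deposited values are the authors' estimated counts for loci and for transcripts, whole and unscaled. Of 215876 annotated transcripts, 197268 matched GENCODE 29. The rest held 0.0756% of counts. 14473 transcripts were assembled models, 10.7% to 11.7% of counts by library.

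Libraries held 55156612 to 56875881 counts. Low locus values from 1 to 24 piled up at multiples of 4 (32.5%, where even spacing gives 25%). This leaves the number of counts per read pair uncertain. It was taken as about 4, giving 13789153 to 14218970 read pairs on that assumption, and counts were divided by 4 for exact Clopper-Pearson 95% intervals (SciPy 1.17.1), whose widths rest on it. A library at 0 entered at a floor of 3 read pairs. Annotated transcripts were summed per gene and scaled by column total. A locus was named when subtracting its assembled models left exactly 1 gene's sum, or that of neighbours of which 1 gene held at least 95%. Sequences came from RefSeq (GRCh38.p14).

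The size rule is given in the results. With 1 library a time no p-value was computed. Named were members past the rule, the defining genes of each step, MYC, MDM2 and the 8 other listed genes lowest at 10 min. The members and lists were chosen with earlier results of these data known. The rule was tried on simulated counts that held counting error only, at the same 4 counts a read pair. That simulation therefore does not bear on differences between libraries or on shifts of counts between transcript models. The 9 alternatives covered scaling (TMM, edgeR 4.0.16, and median of ratios, DESeq2 1.42.0), filters, transcript choice, overlap, count worth and baseline.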

Additional observations from a re-analysis of the deposited data

Results flagged for a closer look

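Counts in assembled transcript models, which the gene values above do not use, stood at least 2-fold above the 0 min library at 4 members' loci. At HEATR1 the models were at 37.1 CPM at 10 min and 56.0 CPM at 30 min, against 1.93 CPM at 0 min, 19.2-fold (interval 13.1 to 29.3) and 28.98-fold (19.8 to 44.1) higher. At RRP12 they were at 11.4 CPM at 10 min against 1.21 CPM, 9.41-fold higher (5.72 to 16.5), and had no counts at 30 and 360 min. At NOLC1 they were at 129 CPM at 30 min and 139.7 CPM at 360 min (140 CPM in whole numbers) against 54.98 CPM, 2.35-fold (2.16 to 2.56) and 2.54-fold (2.34 to 2.76) higher. At WDR75 they were at 19.97 CPM at 30 min (20 CPM in whole numbers) against 6.42 CPM, 3.11-fold higher (2.45 to 3.99).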

How the results depend on the processing

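No paired analysis was possible because each time has 1 library. The 16 members lower at 10 min were the same 16 under both other scalings. Undivided counts and minimums of 1 and 10 CPM could not change them. Every member had at least 14.4 CPM at 0 min, and all 41 intervals already lay below 1. Members lower at 10 min were 15 against the median of the other 3 libraries (UBTF lost) and 13 of 31 with an unchanged leading transcript. They were 12 of 36 on whole loci and 10 of 31 with exon overlap under 10%. Members lower at 30 min fell from 3 to 1 under each of several settings, but not to the same 1. POLR1G was left on whole loci and NOLC1 with overlap under 10%. HEATR1 was left with an unchanged leading transcript and against the other 3 libraries. No member stayed lower under all of these, and some were not compared in each. The 1 lower at 360 min, NOLC1, became 0 on whole loci, with an unchanged leading transcript and against the other 3, which put 1 higher (HEATR1) and moved the median log2 ratio to 0.40. Members higher at 360 than at 10 min became 13 with overlap under 10%. Against the other 3, the baseline for 360 min is the median of the 0, 10 and 30 min libraries, without a counting interval. The 1 higher and the median of 0.40 are thus the same result again, and do not bear on 360 against 10 min alone.

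Over all genes, whole loci gave 495 lower at 10 min, 142 lower and 167 higher at 30 min, and 103 lower and 99 higher at 360 min. An unchanged leading transcript gave 225 and 258 at 30 min, and 244 and 228 at 360 min. A minimum of 1 CPM gave 1816 higher at 10 min, 728 lower and 746 higher at 30 min, 719 and 636 at 360 min, and 2092 lower at 360 against 10 min. Against the other 3, at the 5 CPM minimum, 360 min gave 342 lower and 277 higher. This is the same calculation whether 0 or 10 min is named as the baseline. It does not bear on the 1088 lower and 953 higher at 360 against 10 min.

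Among ratios past the size rule, those that crossed 1 on whole loci were NOC2L (1.07 at 30 min, 1.15 at 360 min), BMS1 (0.903 at 30 min) and NOLC1 (1.11 at 360 min). Against the other 3 they were NOP9 (1.59 at 30 min), and NOLC1 (1.56) and NOC2L (1.33) at 360 min. PWP2 (0.813) and DDX27 (0.920) were past the rule for 360 against 10 min. Their values here are 360 min against the median of the other 3, which is a different comparison. Of 1709 gene ratios under the alternatives, whole loci put 16 under the rule and 3 past it, the other 3 libraries 29 and 3, a 10 CPM minimum 2 and 0, and a 1 CPM minimum 0 and 1. Fewer genes are compared by the overlap and leading transcript limits, and the cause of the other moves was not tested. Depth limits the genes with few counts, such as annotated MYC.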
